A study of Pimephales promelas with 15 samples.

Results

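Livers of 12 male fathead minnows kept in 1 of 3 urban waters were taken as one exposed group and set against the livers of 3 males kept in control water, to look for a response that all 3 waters share. The exposed group was chosen from the sample titles as every array titled Stormwater, Streamwater or Wastewater (4 each), and with the 3 titled Control it makes up all 15 arrays of the series. The fathead minnow (Pimephales promelas) is a small freshwater fish widely used in aquatic toxicology.

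Stormwater was lake water, streamwater was surface water from downstream of a plant that treats wastewater, and wastewater was treated effluent that is reused for landscape irrigation. Control water was tap water after carbon filtration and dechlorination. All fish were mature males from a common tank, were unfed, and spent 48 h in groups of 4 per aquarium. Each water was collected at 1 site on 1 day, so the fish of a water share that collection. The labels do not tie a fish to its aquarium, and p-values measure only how these fish vary.

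The liver takes up, transforms and excretes chemicals from water and food. In fish, ligands of the aryl hydrocarbon receptor induce the detoxifying enzyme cytochrome P450 1A there, and oestrogens switch on the yolk precursor vitellogenin, which male livers otherwise make in trace amounts. Both are classical liver markers of effluent exposure. The files give probes by identifier and by the name of an assembled contig or a sequence number, and 0 of the 15208 probes matched the gene table of the species. The transcripts described below are therefore unnamed. Neither pathway, nor any marker of hepatocytes or of other cell types, could be followed, and the tissue label could not be checked.

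Every array was hybridised in 1 colour with RNA from a single liver, and levels are log2 signals minus the 75th percentile of the same array. A probe counts as detected where the scanner software marks it well above background, and 11640 probes detected on at least 3 arrays were tested. The arrays sat on 2 slides, each with 6 exposed livers, 2 of each water. Slide 1 held 1 control and slide 2 held 2. Stormwater replicate 2 and streamwater replicate 4 stood apart, with a median correlation across probes of 0.789 and 0.785 with the other arrays, against 0.901 or more for every other array. These are called the far arrays below.

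No transcript passed limma's test of exposed against control livers (0 of 11640, 0% called at a threshold of 0.05 after adjustment). The smallest adjusted value, 0.462, was shared by 3 probes. At an unadjusted p under 0.05 the test marked 535 probes, which is 4.60% of those tested, where 582 would be marked by chance. Of these, 118 were higher (1.01%) and 417 lower (3.58%) in exposed livers. The 95% confidence interval of a log2 fold change reached 0.89 to either side for the median probe, and 0.73 for the median of the 7170 probes detected on all 15 arrays. A difference well within that interval could not be resolved. The interval is that of a single probe before adjustment, and differences beyond it also failed the adjusted threshold. UF_Ppr_AF_118252, described below, differed by 2.49 with an interval of 1.04 to either side (limma adjusted p = 0.462). The count of 535, against 582 by chance, depended on the setting. It came to 1014 when slide was a block, 251 without control replicate 2, 215 within slide 1 and 745 within slide 2. Of these settings only the contrast within slide 2 let a probe pass the adjusted threshold, and it was 1 probe, described below. Both within-slide contrasts took their residual spread from all 15 arrays, and slide 1 held a single control.

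Over all probes tested the median log2 fold change was -0.14. It was -0.32 over the 4470 probes not detected on all 15 arrays and -0.05 over the 7170 detected on all. At a limma unadjusted p under 0.05, 216 of the 4470 were lower and 14 higher. Of the 7170, 201 were lower and 104 higher. Over all 11640 probes tested, 417 (3.58%) were lower and 118 (1.01%) higher. A difference between these sets was not tested. The shift over all probes, and the split into higher and lower probes, depended on the scaling. Quantile normalization put the median at -0.00268, with 203 probes higher and 285 lower. The authors' values put it at 0.0123 (202 higher, 232 lower), and a normexp background put it at 0.0855 (121 higher, 204 lower). Each scaling was tested on the same 11640 probes.

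**Figure D1:**
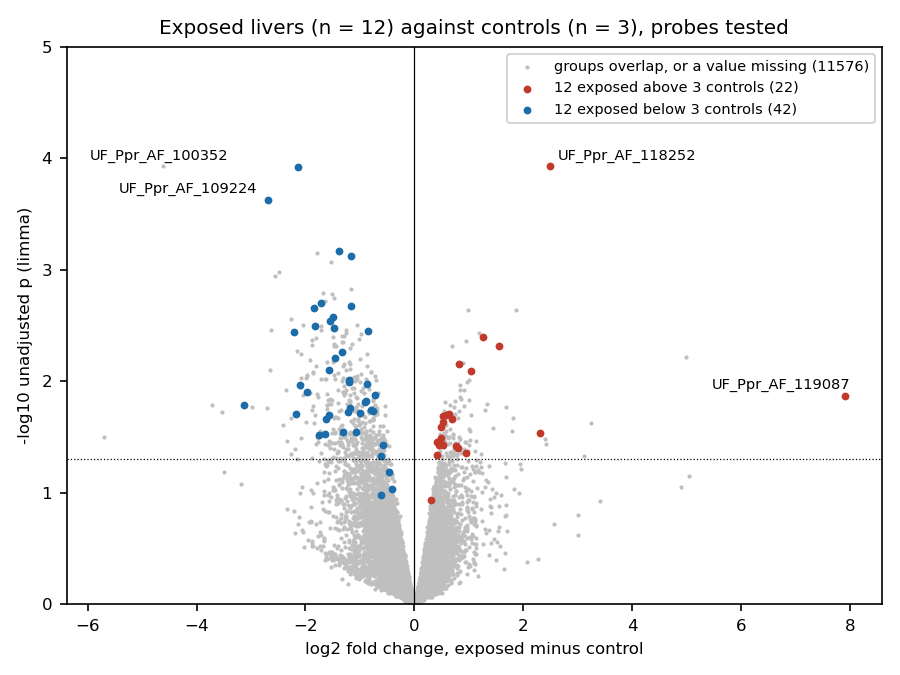
Log2 fold change of exposed over control livers (x axis) against -log10 of the unadjusted limma p (y axis) for the 11640 probes tested, with the dotted line at 0.05. Red points (22) have all 12 exposed livers above all 3 controls, blue points (42) have them all below, and 4 probes described in the text are labelled.

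A response shared by every fish in the waters was looked for as probes with all 12 exposed livers on one side of all 3 controls. Of 11539 probes measured on every array, 22 (0.191%) had all exposed livers above the controls and 42 (0.364%) had them all below. In 42 of these 64 probes the transcript was detected on all 15 arrays (18 above, 24 below). For any probe, 1 of the 455 ways to pick 3 of the 15 arrays holds its 3 lowest levels, and 1 its 3 highest. By chance alone, 1 in 455 probes would thus separate in each direction. The share above the controls (0.191%) was smaller than that and the share below them (0.364%) was larger, and neither was tested against it. The groups were mostly close. The nearest exposed and control livers lay a median of 0.09 log2 units apart, and only 1 probe, UF_Ppr_AF_118252, had a gap over 0.5. Quantile normalization gave 34 above and 33 below, of which 16 and 24 were the same probes. The authors' values gave 43 above and 19 below, sharing 18 and 17, and normexp gave 17 above and 27 below, sharing 7 and 16. Under all 4 scalings 5 probes lay above and 13 below. Leaving out arrays leaves fewer to separate, so chance alone would separate more than 1 in 455 probes in each direction. The chance share was not worked out for these settings, so their counts cannot be set against the 64. The count was 436 without control replicate 3, 187 without control replicate 1, 183 without control replicate 2 and 97 without wastewater replicate 1, against 104 without both far arrays.

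**Figure D2:**
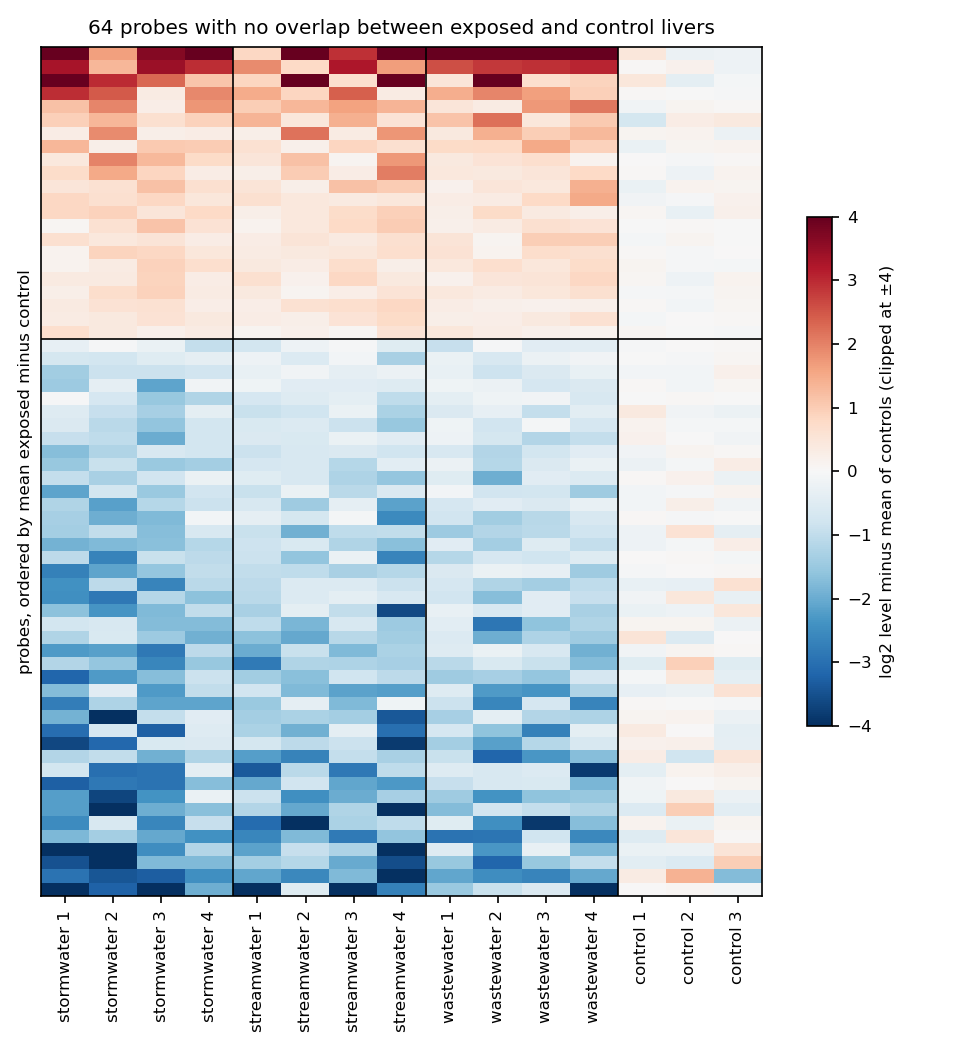
Levels of the 64 probes whose exposed and control livers do not overlap, as log2 level minus the mean of the 3 controls (colour, clipped at 4), with 1 row per probe and 1 column per liver. The 22 probes above the upper line are higher and the 42 below it lower in every exposed liver, by amounts that vary from liver to liver within each water.

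The higher probes described next were picked by the rule of no overlap, so their separation is no further result. UF_Ppr_AF_118252, a probe for contig FJU.5117.C2, showed the widest separation. Its level was 1.14, -0.82, 1.28 and 0.81 in stormwater livers, -0.26, -1.34, 1.09 and -0.45 in streamwater livers, and 0.43, 0.69, 0.78 and 0.90 in wastewater livers, against -2.10, -1.97 and -2.34 in controls. Every exposed liver was higher than every control, and the lowest exposed values came from streamwater replicate 2 and the far array of stormwater. On average the level was 5.63-fold higher, or 2.49 on the log2 scale (SE 0.49), with a limma adjusted p of 0.462. The log2 fold change was 2.08 within slide 1 and 2.89 within slide 2, and the adjusted p ran from 0.0615 with array weights to 1.00 over 34 settings. The test between the 3 waters gave it an adjusted p of 0.945.

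UF_Ppr_AF_102763 (FJU.3525.C1) was next by p among the higher probes detected on all arrays without overlap. Its 12 exposed livers ran from -1.87 through a median of -0.63 to 0.77, while the controls lay close together, at -2.13, -2.19 and -2.23. The means differed by 1.56 log2 units (SE 0.48, adjusted p = 0.985 in limma), by 1.81 within slide 1 and by 1.28 within slide 2. Stormwater replicate 3 and the far streamwater array lay closest to the controls.

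Differences were smaller in the other named higher probes that were detected on all arrays. UF_Ppr_AF_107042 (FJU.4288.C1) averaged 2.83 ± 0.39 in exposed livers and 2.00 ± 0.22 in controls (SD, n = 12 and 3). The log2 fold change was 0.82 (SE 0.27). UF_Ppr_AF_115344 (FJU.11196.C1) had a log2 fold change of 1.04 (SE 0.34), which was 1.94 within slide 1 and 0.48 within slide 2. Its control on slide 1 stood at -2.96, below the -1.96 and -1.86 of the slide 2 controls. UF_Ppr_AF_101590 (FJU.1152.C2), UF_Ppr_AF_103083 (FJU.2461.C1) and UF_Ppr_AF_108389 (FJU.3658.C1) had log2 fold changes of 0.63, 0.69 and 0.81. The limma adjusted p was 0.985 for each of these 5 probes. With UF_Ppr_AF_118252 and UF_Ppr_AF_102763, the last 3 are the 5 probes that lay above the controls under all 4 scalings.

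**Figure D3:**
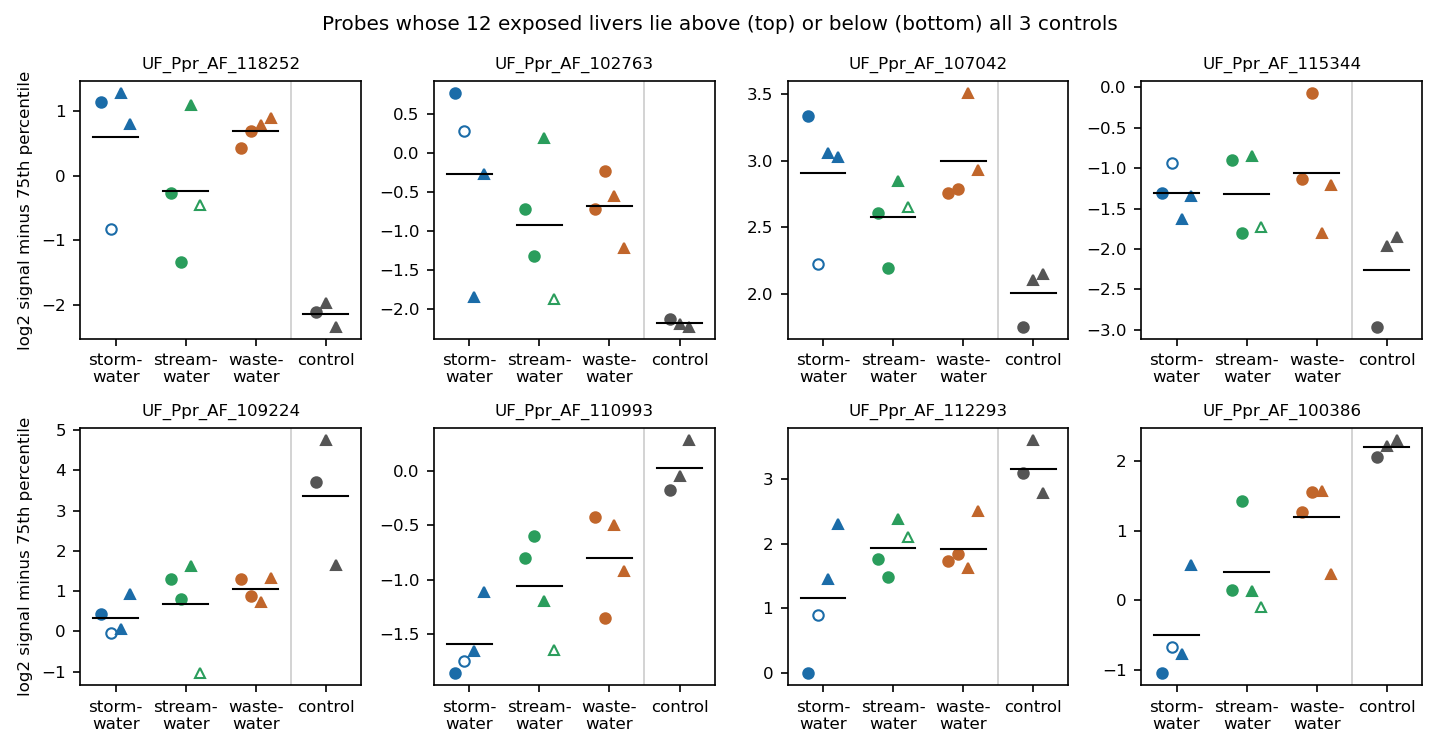
Level of 8 probes (log2 signal minus the array's 75th percentile, y axes) in each liver of the 3 waters and the control. Circles are slide 1, triangles slide 2, open symbols the 2 far arrays and bars group means. All 12 exposed livers lie above the 3 controls in the top row and below them in the bottom row.

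UF_Ppr_AF_109224 (FJU.236.C2) had the smallest p of the lower probes that were detected on all arrays without overlap. It stood at 0.43, -0.05, 0.06 and 0.93 in stormwater livers, 1.29, 0.80, 1.62 and -1.04 in streamwater livers, and 1.30, 0.88, 0.73 and 1.33 in wastewater livers, against 3.71, 4.76 and 1.64 in controls. The far streamwater array was the lowest, and control replicate 3 lay almost level with streamwater replicate 3. The means differed by -2.68 log2 units (SE 0.57), with an adjusted p of 0.684 in limma. The difference was -2.94 within slide 1 and -2.60 within slide 2. Without control replicate 3 it was -3.55 and still did not pass (adjusted p = 0.0704).

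UF_Ppr_AF_100386 (FJU.1388.C2) differed in how far each water lay from the control. Its level was -1.05, -0.67, -0.77 and 0.51 in stormwater livers, 0.15, 1.43, 0.14 and -0.09 in streamwater livers, and 1.27, 1.56, 1.58 and 0.38 in wastewater livers, against 2.07, 2.22 and 2.31 in controls. Pooled, the exposed livers differed from controls by -1.83 log2 units (SE 0.53, adjusted p = 0.985 in limma). The 3 waters lay in the order just given, from lowest to highest mean, a spread that gave an unadjusted p of 0.00437 and an adjusted p of 0.821 in limma's test between the waters. Of the 64 probes without overlap, 8 had an unadjusted p under 0.05 in that test, where 4.79% of all probes tested did. The 64 were picked by exposed and control levels that this test also uses, so the shares are not like for like.

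Another 4 lower probes without overlap are given here, and their separation is the rule that picked them. With UF_Ppr_AF_109224 and UF_Ppr_AF_100386, they lay below the controls under all 4 scalings. UF_Ppr_AF_108959 and UF_Ppr_AF_110230, described below, lay below all controls on the main scale but not under all 4 scalings. UF_Ppr_AF_110993 (FJU.3373.C3) averaged -1.15 ± 0.51 in exposed livers and 0.02 ± 0.24 in controls (SD, n = 12 and 3), and the means differed by -1.17 (SE 0.32). UF_Ppr_AF_112293 (FJU_SB_30.17.C1) averaged 1.67 ± 0.70 in exposed livers and 3.16 ± 0.42 in controls, and the means differed by -1.49 (SE 0.42). UF_Ppr_AF_103789 (FJU.5345.C1) had a log2 fold change of -1.48 (SE 0.43), which was -0.94 within slide 1 and -1.79 within slide 2. UF_Ppr_AF_102146 (FJU.10544.C1) was even across controls, at 3.21, 3.26 and 3.10, and uneven after exposure, from -3.63 through a median of 0.23 to 2.71. Its log2 fold change of -3.13 carried an SE of 1.16. The limma adjusted p was 0.985 for each of these 4 probes. Apart from UF_Ppr_AF_118252, UF_Ppr_AF_109224, UF_Ppr_AF_100352 and UF_Ppr_AF_110230, every probe named for the pooled comparison had an adjusted p of 0.359 or more under each setting tried.

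A few transcripts were detected in one group and not in the other. No probe was detected on all 12 exposed arrays and on no control array, while 4 were detected on all 3 controls and on no exposed array. Of the 15208 probes, 9637 were detected on all 3 controls and 3207 on none. The counts of 0 and 4 are not symmetric, since one asks for detection on 12 arrays and the other on 3. The direction of these 4 follows from how they were picked, and they met the filter through the controls alone. UF_Ppr_AF_108959 (FJU.7690.C2) was the largest of the 4, at -4.86 ± 1.11 in exposed livers and at -3.06, -3.21 and -1.68 in controls (limma adjusted p = 0.985). It was 2.88-fold lower after exposure where exposed levels under an array's lowest detected signal were set to that signal. UF_Ppr_AF_105253, UF_Ppr_AF_101070 and UF_Ppr_AF_103760 were 1.43-fold, 1.40-fold and 1.27-fold lower by the same measure, with levels that overlapped. None of the 4 folds was reached with a normexp background. The log2 fold change was then -0.86 for UF_Ppr_AF_108959, against -2.21 on the main scale, and -0.22 for UF_Ppr_AF_101070, against -1.48. It was 0.03 for UF_Ppr_AF_105253 and 0.10 for UF_Ppr_AF_103760. The 4 folds are not lower limits. They leave out the spread between livers, and an undetected spot can be brighter than a detected one. The count of 4 was 15 without both far arrays, 38 without the stormwater arrays, 32 without control replicate 1, 12 without stormwater replicate 2 and 9 without control replicate 3.

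In the other direction, 2 of the 3207 probes detected on no control were detected in at least 9 exposed livers. This rule is looser than the one used above. Its reverse, detection on all 3 controls and in at most 3 exposed livers, held for 108 of 9637 probes. The bases are unlike, since 2256 of the 3207 were detected on no array and 7170 of the 9637 on all 15. Controls also had a higher detected share on average, 71.5% against 64.8% in exposed livers. The counts of 2 and 108 are therefore not like for like, and their difference was not tested. The 2 probes met the filter through exposed livers alone, and their direction follows from that choice. UF_Ppr_AF_119087 (FJU.256.C1) was low in some exposed livers and very bright in others. It reached 6.67, 7.65, 5.97 and 7.33 in wastewater livers, 6.75 in stormwater replicate 4 and 5.10 in streamwater replicate 2, ran from -5.39 to -1.67 among the remaining 6, and was at -5.79, -6.47 and -6.43 in controls. All 12 exposed livers were above the controls, 10 of them detected (adjusted p = 0.985 in limma for the pooled difference). This separation did not hold under all 4 scalings. The closest livers, streamwater replicate 1 at -5.39 and control replicate 1 at -5.79, were both undetected. The pooled mean was 71.9-fold higher where control levels under an array's lowest detected signal were set to that signal. The exposed mean, 1.68, falls in the gap between the low and the bright livers. The fitted log2 fold change of 7.91 was 7.07 within slide 1 and 8.53 within slide 2. It was 5.26 with normexp and 5.30 without the wastewater arrays, both smaller than a 71.9-fold difference. The test between the waters had an unadjusted p of 0.00485 and an adjusted p of 0.821. UF_Ppr_AF_109476 (FJU.13734.C1) was detected in 3 of 4 stormwater, 4 of 4 streamwater and 2 of 4 wastewater livers. Its exposed levels ran from -7.43 through a median of -0.76 to 1.75, against -6.16, -6.75 and -6.69 in controls (limma adjusted p = 0.985). The exposed mean was 7.72-fold higher with control levels set in the same way. The lowest exposed value was that of stormwater replicate 2, a far array.

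The other 2 of the 3 probes that shared the lowest adjusted p were not detected in every exposed liver. UF_Ppr_AF_100352 (FJU.579.C1) lay between -6.16 and -1.87 in exposed livers and at -2.43, 2.69 and 1.72 in controls, so that the slide 1 control fell within the exposed range. The means differed by -4.62 log2 units (SE 0.91, adjusted p = 0.462 in limma), and by -0.83 within slide 1. The difference was -6.86 within slide 2 (limma adjusted p = 0.00358) and -6.16 without control replicate 1 (limma adjusted p = 0.0230), and the probe passed in both. Both settings leave out control replicate 1, the slide 1 control that fell within the exposed range. The 2 passes are therefore not separate results, and these 2 p-values do not test the difference. UF_Ppr_AF_110230 (FJU.5963.C1) was detected in 1 of 12 exposed livers and in all 3 controls, and its means differed by -2.13 log2 units (SE 0.42, adjusted p = 0.462 in limma), or by -0.52 with normexp (unadjusted p = 0.256).

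The 3 waters were also compared with each other. No probe passed limma's F test between the 3 waters (0 of 11640, 0% called), and 557 (4.79%) had an unadjusted p under 0.05, where 582 would by chance. The lowest adjusted p, 0.0893, belonged to UF_Ppr_AF_107921 (FJU.10636.C2), detected in all 4 stormwater livers and in none of the other 11. A second probe for the same target, UF_Ppr_AM_120669, was detected on 0 arrays and was not tested. UF_Ppr_AF_107921 averaged -2.65 ± 0.38 after stormwater, -5.34 ± 0.42 after streamwater and -5.13 ± 0.50 after wastewater, against -4.98 ± 0.81 in controls (SD, n = 4, 4, 4 and 3). UF_Ppr_AF_103198 (FJU.5197.C1) came next (adjusted p = 0.189), detected in all stormwater and streamwater livers and in no wastewater liver, and in 2 of 3 controls. It averaged -1.82 ± 0.70 after stormwater, -1.72 ± 0.82 after streamwater and -5.77 ± 0.51 after wastewater, against -3.12 ± 1.87 in controls. With the 12 exposed arrays alone these 2 probes passed (adjusted p = 0.0387 and 0.0282). The count of passing probes was 39 without streamwater replicate 3, 3 without control replicate 3 and 1 without control replicate 1. An F test that misses the threshold does not show that the waters act alike.

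The share of probes detected was lower on average in exposed livers, by a difference that did not pass, and the stormwater mean lay closest to the control mean. It averaged 69.8% ± 5.58 after stormwater, 63.4% ± 2.52 after streamwater and 61.3% ± 2.55 after wastewater, against 71.5% ± 4.97 in controls (SD, n = 4, 4, 4 and 3). A difference between the waters in this share was not tested. Single values ran from 58.5% through a median of 64.3% to 77.1% in exposed livers and was 65.8%, 75.2% and 73.4% in controls. Pooled, the exposed mean was 64.8% ± 5.14 against the control mean of 71.5% (SD, n = 12 and 3; two-sided exact permutation p = 0.0593 over 455 splits, 0.119 after adjustment over 2 array measures). Within slide 1 the 6 exposed livers averaged 65.9% and the control had 65.8%. Within slide 2 they averaged 63.8% ± 4.67 against 74.3% ± 1.30 (n = 6 and 2), and the two-sided exact permutation p of 0.0357 is the smallest that 28 splits allow. The difference of -6.63 percentage points ran from -9.45 to -4.76 as each array was left out in turn. It was -9.45 without control replicate 1 (exact permutation p = 0.0330), the control with the lowest share. Without stormwater replicate 2, the exposed liver with the highest share, it was -7.74 (exact permutation p = 0.0110). Both arrays are singled out here by the shares themselves, so these 2 p-values do not test the difference. The part of the detected share in the surplus of lower over higher probes at an unadjusted p under 0.05 (417 against 118) was not tested. The 75th percentile of the signal itself was 11.05 ± 0.41 log2 units in exposed livers and 10.93 ± 0.17 in controls (two-sided exact permutation p = 0.622). In whole liver, fewer cells of a type and less of a transcript per cell cannot be told apart.

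**Figure D4:**
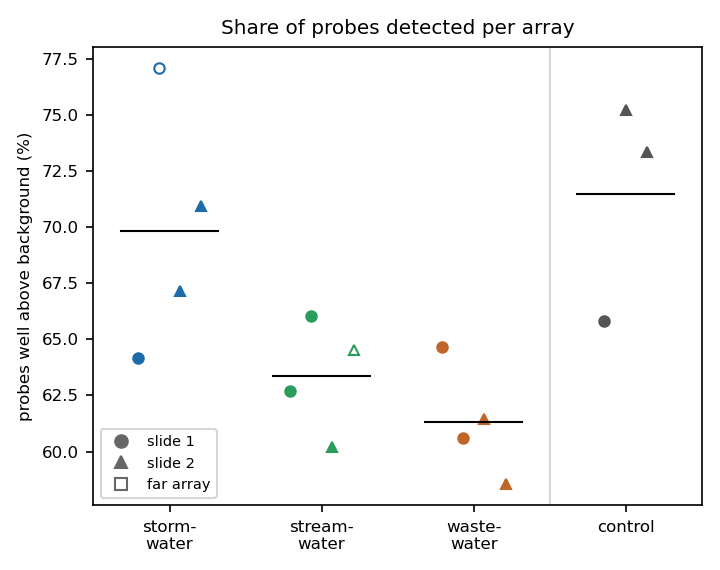
Share of the 15208 probes well above background on each array (y axis, percent), by water, with circles for slide 1, triangles for slide 2, open symbols for the 2 far arrays and bars for group means. The controls of slide 2 (75.2% and 73.4%) lie above every exposed liver but stormwater replicate 2, and the control of slide 1 (65.8%) lies among them.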

How the data were processed

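The authors' scanner files hold spot intensities from Agilent Feature Extraction. Per the file headers its version was 10.1.1.1, while the submitters' processing notes name 9.5. The processed signal is background-subtracted within the array and not normalized between arrays, per the file headers. The authors' deposited value table is on a log2 scale, and how it was normalized is not known here. It served as an alternative. Groups and replicate numbers came from the sample titles.

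Processed signals of the 15208 non-control probes were log2-transformed and each array was centred on its own 75th percentile. Outlier spots became missing values. Probes detected on 3 or more of the 15 arrays were fitted with limma 3.58.1 in R 4.3.3, as 12 exposed against 3 control arrays (two-sided, Benjamini-Hochberg over 11640 probes, threshold 0.05). Fold changes are exposed over control, with limma's standard error. Differences between the waters enter the residual spread, which has 13 degrees of freedom. A mean per water served for the F test between waters. Differences within a slide are contrasts from a fit of all 15 arrays, with a mean for each group on each slide. Array measures were compared by exact permutation. Precision is limited by how few arrays there are. The fit was tested on simulated data, and figures were drawn with matplotlib 3.10.9.

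Named probes are those detected on all arrays without overlap (the 5 of smallest p in each direction), those without overlap and with the largest fold, if detected on all arrays of the brighter group (3 in each direction), probes detected in one group alone (up to 3), and the 2 of smallest p between waters. Others were added after their values were seen, namely the 3 of lowest p, the fourth probe detected in controls alone, those detected in 9 or more exposed livers and no control, and those above controls under all 4 scalings. Gene lists could not be used, since no probe carries a gene name. The question, the rules and the far arrays were chosen with earlier results of these data known. Contig names are those of the array's design.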

Additional observations from a re-analysis of the deposited data

Results flagged for a closer look

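In 3 of 75 groups of 4 livers, 1 liver stood far from the other 3, and chance gives about 1 in 20. UF_Ppr_AF_100386 was at 1.43 in streamwater replicate 2 and between -0.09 and 0.15 in the other streamwater livers. UF_Ppr_AF_103789 was at -2.10 in streamwater replicate 1 and between -0.61 and -0.48 in the others. UF_Ppr_AF_110230 was at -4.01 in wastewater replicate 3 and between -6.16 and -5.80 in the others.

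UF_Ppr_AF_103198 lay on opposite sides of the control mean in different waters, with every liver of a water on the same side. Its mean was 1.30 above the control mean after stormwater, 1.40 above it after streamwater and -2.65 from it after wastewater (log2 units, n = 4 each). The test between the waters gave a limma adjusted p of 0.189, which ran from 0.0172 to 0.875 over 26 settings, and the 3 controls themselves spread from -4.73 to -1.07.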

How the results depend on the processing

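No probe passed in 31 of 33 other settings of the pooled fit. The exceptions were within slide 2 and without control replicate 1, with 1 probe each, UF_Ppr_AF_100352. Both leave out control replicate 1. Leaving out each array in turn gave 0 to 1. The unadjusted count stayed within 1.5 times of 535 in 28 settings and was 325 with normexp, 1014 with slide as a block, 841 with array weights and 215 within slide 1, with 251 to 608 over left-out arrays. The median log2 fold change moved to -0.00268 with quantile normalization, 0.0855 with normexp and 0.0123 with the authors' values, and ran from -0.16 to -0.11 over left-out arrays. The 64 probes without overlap became 42 where only probes detected on all arrays were kept (fewer tested). With fewer arrays to separate, chance alone separates a larger share of probes. The count was then 104 without the far arrays and 109, 169 and 211 without stormwater, streamwater and wastewater arrays. It ran from 70 to 436 over left-out arrays. The 4 probes detected in one group alone became 15 without the far arrays, 38 without stormwater arrays and 4 to 32 over left-out arrays. Between waters, 2 probes passed with the 12 exposed arrays alone and 0 to 39 over left-out arrays. The detected share differed by 0.0482 within slide 1 (a single control), by -10.5 within slide 2 and by -9.45 to -4.76 over left-out arrays. It differed by -7.82 without the far arrays (exact permutation p = 0.0140) and by -9.13 without stormwater (exact permutation p = 0.0121). Both of these settings leave out stormwater replicate 2, the exposed liver with the highest share. Their p-values are therefore no further test of the difference. The 75th percentile differed by -0.0152 within slide 2 and -0.0427 without stormwater, against 0.12 in all arrays, and by 0.03 to 0.20 over left-out arrays. With normexp UF_Ppr_AF_103760 was at 0.10 and UF_Ppr_AF_105253 at 0.0283. Where no cause is given it was not tested. Of 735 values of single probes under other settings, 724 kept their side of the threshold and, in the pooled fit, their direction. Of the rest, 2 changed direction and 9 came to pass the threshold. The 735 include the F test between waters for UF_Ppr_AF_107921 and UF_Ppr_AF_103198, which has no direction. Those 2 probes passed in 3 and 4 settings. Most of the probes lay far from the threshold in the main fit, so the count of 724 says little about size. UF_Ppr_AF_110230 went from -2.13 to -0.52 with normexp, and UF_Ppr_AF_100352 from -4.62 to -0.83 within slide 1.

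The labels do not say that a replicate number marks a shared litter, batch or day, and same-numbered livers were not treated as pairs. Their deviations correlated at -0.46 to 0.39 over 21 pairs (median 0.154), 13 of them over 0.1, including all 6 pairs of number 1. With the replicate number as a block 0 probes passed in either test, 530 had an unadjusted p under 0.05 in the pooled fit, and its lowest adjusted p was 0.902. In the exposed groups numbers 1 and 2 lie on slide 1 and 3 and 4 on slide 2.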

Other observations

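Single livers differed more among the exposed fish than among the controls. The median SD of a probe was 0.69 over the 12 exposed livers, 0.58 without the 2 far arrays and 0.41 over the 3 controls, although an SD from 3 values tends to be low and this was not tested.

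Of the 14499 target sequences on the array, 709 have a second probe, which reads the same livers again through another spot. Only 2 of the 64 probes without overlap have one. For UF_Ppr_AM_119286, with a log2 fold change of -2.09, the second probe UF_Ppr_AF_112022 had -0.70 (SE 0.52) and was detected on only 5 of 15 arrays. For UF_Ppr_AF_107883, with 0.76, the second probe UF_Ppr_AM_119876 had -0.20 (SE 0.55) and was detected on all 15. Over the arrays the first pair correlated at 0.36 and the second at -0.78, so the second pair did not read alike. Neither second probe separated the groups.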
